A study of Bos taurus with 24 samples.

Results

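The plasma miRNA profile on Day 16 of the oestrous cycle, late in the luteal phase, was set against that on Day 8, in the middle of it, within the same 8 heifers. A miRNA was included where it exceeded 25 RPMM, the authors' RPM unit in which a count is divided by the number of genome-mapped reads in its library, in at least 6 of the 8 libraries of Day 16 and in at least 6 of the 8 libraries of Day 8. Of the 870 miRNAs in the table, 186 met this rule, 182 under bovine and 4 under human names, and they held 99.8% of the miRNA counts of the 16 libraries compared. The series has 24 libraries in all, and the other 8, from the day of oestrus (Day 0), entered the fit for its estimate of the spread and gave a baseline for the levels of the leading miRNAs. Both groups were plasma of the same yearling, non-pregnant, female Holstein-Friesian cattle. All animals had been oestrus-synchronised with a progesterone insert, buserelin and cloprostenol, so the Day 16 and the Day 8 samples share that treatment. Day 0 was the first day on which oestrus was seen, and the stage was checked by plasma progesterone. Each library was made from 1 plasma sample, and the day of the cycle cannot be told apart from the occasion on which each sample was drawn and spun.

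In cattle, the corpus luteum grows from the ovulated follicle and secretes progesterone through the luteal phase, until prostaglandin from the uterus brings about its regression in a cycle without pregnancy. Plasma miRNAs are short RNAs released by many tissues, carried in vesicles or bound to proteins, and blood cells are their main known source. Within a cell a miRNA guides a silencing complex to messenger RNAs that pair with its seed, the bases at its 5′ end from the second to the eighth, so that miRNAs with the same seed are grouped into families.

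The 16 libraries were deep relative to the limit used. Total miRNA counts ranged from 1488279 to 4672302 on Day 16 (median 2945688) and from 2197709 to 4700764 on Day 8 (median 3390108), and the smallest library, Day 16 of heifer 16, still had 57.0 counts at 25 RPMM. MiRNAs made up 70.9% ± 4.55 of mapped reads on Day 16 and 70.8% ± 4.67 on Day 8 (SD, n = 8 each; exact sign-change permutation p = 0.969). The number of miRNAs above 1 RPMM was 359.9 ± 10.8 on Day 16 and 362.9 ± 16.0 on Day 8 (SD, n = 8 each; exact sign-change permutation p = 0.680).

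The mature sequences below are those of the miRNAs on which the comparison turns, written as DNA with their seed in capitals, as the study lists the canonical form of each. The coordinates given with the results are those of the deposited table, which names no genome build, and the host genes are those of the RefSeq annotation of ARS-UCD2.0. Such a form was found for 121 of the 186 miRNAs. MiR-146b and miR-451 are named only. The first group holds the miRNAs with the smallest p-values, together with miR-10a, which is given for its seed. The second holds the erythrocyte miRNA miR-486 with miR-15a, miR-25 and miR-92a, and the third miR-221, miR-222 and miR-28.
miR-10b: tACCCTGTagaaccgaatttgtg
miR-10a: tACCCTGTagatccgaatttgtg
miR-126-5p: cATTATTActtttggtacgcg
miR-101: tACAGTACtgtgataactgaa
miR-144: tACAGTATagatgatgtactag
miR-1468: cTCCGTTTgcctgttttgctga
miR-155: tTAATGCTaatcgtgataggggt
miR-486: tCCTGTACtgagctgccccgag
miR-15a: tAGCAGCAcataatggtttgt
miR-25: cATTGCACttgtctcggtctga
miR-92a: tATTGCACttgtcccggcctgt
miR-222: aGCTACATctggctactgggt
miR-221: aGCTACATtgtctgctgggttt
miR-28: aAGGAGCTcacagtctattgag
The pair miR-10b and miR-10a shares its seed and differs at 1 of the 23 bases compared, and the pair miR-25 and miR-92a shares its seed as well, as does the pair miR-221 and miR-222.

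Between Day 16 and Day 8, 0 of the 186 miRNAs (0%) passed the adjusted threshold of 0.1, and the smallest adjusted p was 0.742 (edgeR quasi-likelihood test, heifer as a block, Benjamini-Hochberg adjustment). Before adjustment, at p under 0.05, 6 miRNAs (3.23% of those tested) were past the threshold with a higher level on Day 16 and 1 (0.538%) with a lower one. DESeq2 also called 0 at the adjusted threshold, with 7 higher and 4 lower at the unadjusted one. An exact sign-change permutation test within the 8 heifers, added after the data had been seen, gave 13 higher and 1 lower at p under 0.05, with a smallest adjusted p of 0.484. Its p cannot fall below 0.0078 with 8 heifers, so an adjusted p under 0.1 would need many miRNAs to tie at that value. Log2 fold changes ran from −0.47 to 0.78, with a median of 0.03 and quartiles of −0.09 and 0.16, and 108 miRNAs (58.1%) lay above 0. Within heifers, 16 miRNAs (8.60%) were higher on Day 16 in at least 7 of 8 animals and 2 (1.08%) were lower in at least 7. For 0 of the 186 were the ranges of the Day 16 and Day 8 libraries separate, in either direction.

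The differences were small, and the intervals say how small. The fold change of 53 miRNAs lay 0.2 or more from 0 on the log2 scale and that of the others within it, 1 exceeded 1.5-fold (miR-486) and 0 exceeded 2-fold. The 95% interval of the fold change lay within 1.5-fold in either direction for 130 miRNAs and within 2-fold for 176. Among the 10 with a wider interval were miR-486, miR-451, miR-133a, miR-26a, miR-26c, let-7d and let-7f. The standard error of a log2 fold change had a median of 0.17 and ranged from 0.10 to 0.85, the largest belonging to miR-133a.

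**Figure D1:**
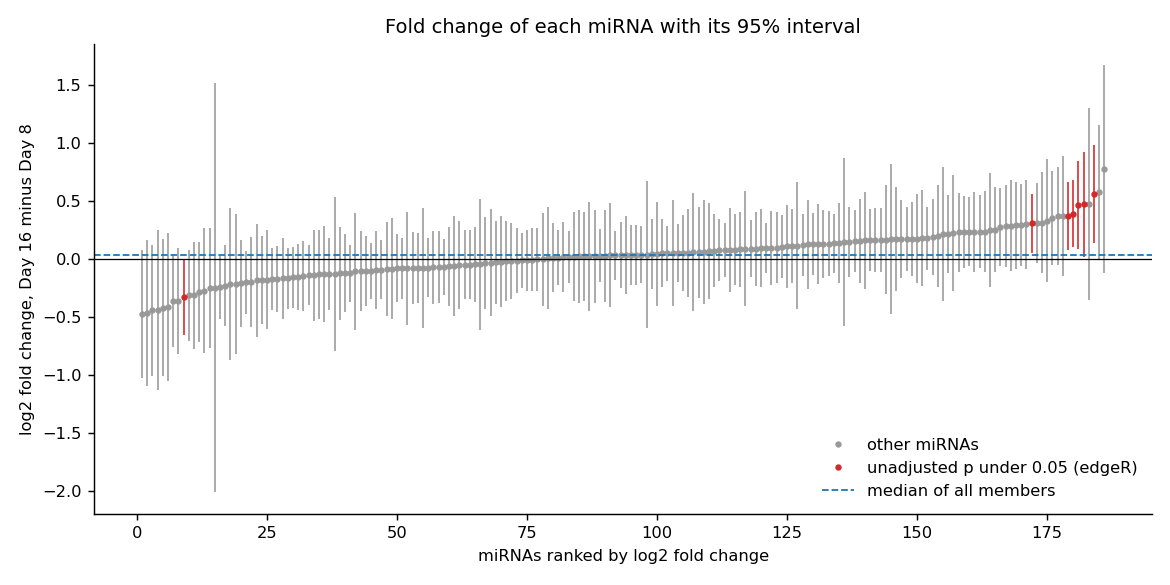
The 186 miRNAs ranked by their log2 fold change, Day 16 minus Day 8, each point with its 95% interval (edgeR, n = 8 heifers); red marks the 7 with an unadjusted p under 0.05 and the dashed line the median of 0.03. Most intervals cross 0, and the widest, of miR-133a, runs from −2.01 to 1.52.

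Of the 6 miRNAs higher on Day 16 at the unadjusted threshold, 3 were higher in all 8 heifers, namely miR-146b, miR-126-5p and miR-1468. MiR-146b (chr26:23509778-23509801, plus strand) dampens inflammatory signalling downstream of Toll-like receptors in human and mouse cells. It had 53.4, 62.7 and 150.1 CPM (lowest, median and highest) on Day 16, against 32.7, 41.1 and 78.2 CPM on Day 8. CPM are counts scaled to the miRNA total of the library, corrected by the trimmed mean of M-values (TMM). The highest library on both days was that of heifer 18, and 7 of the 8 Day 16 libraries lay within the range of the Day 8 libraries. Its log2 fold change was 0.56 (SE 0.20; adjusted p = 0.742, edgeR; exact sign-change permutation p = 0.0078, the smallest that 8 heifers allow).

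MiR-126-5p (chr11:108009400-108009420, plus strand) is one arm of the miR-126 hairpin, which lies in EGFL7, a gene of endothelial cells, and acts in the growth of blood vessels in mouse and zebrafish. Its levels were 5429, 7420 and 12264 CPM on Day 16, against 3835, 5853 and 7503 CPM on Day 8. In heifers 18, 20 and 34 the difference was small, at 0.09, 0.00 and 0.12 on the log2 scale, and in heifer 22 it was 0.97. The log2 fold change was 0.37 (SE 0.14; adjusted p = 0.742, edgeR; exact permutation p = 0.0078), and that of the other arm, miR-126-3p, was 0.28 (SE 0.16; adjusted p = 0.822, edgeR).

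MiR-1468 was measured at 1204, 1784 and 2298 CPM on Day 16, against 1182, 1408 and 1768 CPM on Day 8. Heifers 21 and 22 had the largest differences, at 0.82 and 0.81 on the log2 scale, while heifer 35 had 0.00. Its log2 fold change was 0.31 (SE 0.12; adjusted p = 0.742, edgeR; exact permutation p = 0.0078), and without heifer 22 it was 0.19.

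The other 3 were higher in 7 of 8 heifers. MiR-10b (chr2:21426250-21426272, minus strand), which lies in HOXD4 among the HOXD genes and is known for its part in the migration of human tumour cells, had 28240, 35782 and 41705 CPM on Day 16, against 16440, 28837 and 37833 CPM on Day 8. The 8 Day 16 libraries spanned a narrower range than the Day 8 libraries, and the low end of Day 8 was made by heifers 22, 25 and 35. Its log2 fold change was 0.39 (SE 0.14; adjusted p = 0.742, edgeR; exact permutation p = 0.023). Its near-identical relative miR-10a, with which it may share reads, had a log2 fold change of 0.09 (SE 0.10; adjusted p = 0.886, edgeR) and was also higher in 7 of 8 heifers.

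MiR-101, which represses the chromatin enzyme EZH2 in human cells, has more than one copy in the cattle genome, and the table places it at chr3:86285859-86285879. It had 11061, 15671 and 25798 CPM on Day 16, against 6873, 10863 and 20211 CPM on Day 8. MiR-144 (chr19:20148048-20148069, minus strand), transcribed with miR-451 in developing red cells, had 131.4, 242.3 and 356.9 CPM on Day 16, against 91.6, 176.2 and 274.5 CPM on Day 8. In both, the heifer that went against the others differed little between days (heifer 16 with −0.13 for miR-101, heifer 20 with −0.04 for miR-144). The log2 fold change was 0.46 (SE 0.18; adjusted p = 0.742, edgeR; exact permutation p = 0.016) for miR-101 and 0.47 (SE 0.22; adjusted p = 0.822, edgeR; exact permutation p = 0.016) for miR-144.

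MiR-155 (chr1:10199667-10199689, minus strand), which activated lymphocytes and macrophages make in abundance, was the only one of the 7 that was lower on Day 16. It had 150.2, 228.2 and 355.5 CPM on Day 16, against 147.6, 286.7 and 559.7 CPM on Day 8. The Day 8 libraries were the more widely spread, and 5 of 8 heifers were lower on Day 16. Its log2 fold change was −0.33 (SE 0.15; adjusted p = 0.822, edgeR; exact permutation p = 0.125). MiR-28, which lies in LPP, a gene of cell adhesion, was lower in 6 of 8 heifers, with 116.9, 168.4 and 249.6 CPM on Day 16, against 151.8, 220.3 and 315.2 CPM on Day 8, and its log2 fold change was −0.36 (SE 0.19; adjusted p = 0.822, edgeR; exact permutation p = 0.031).

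**Figure D2:**
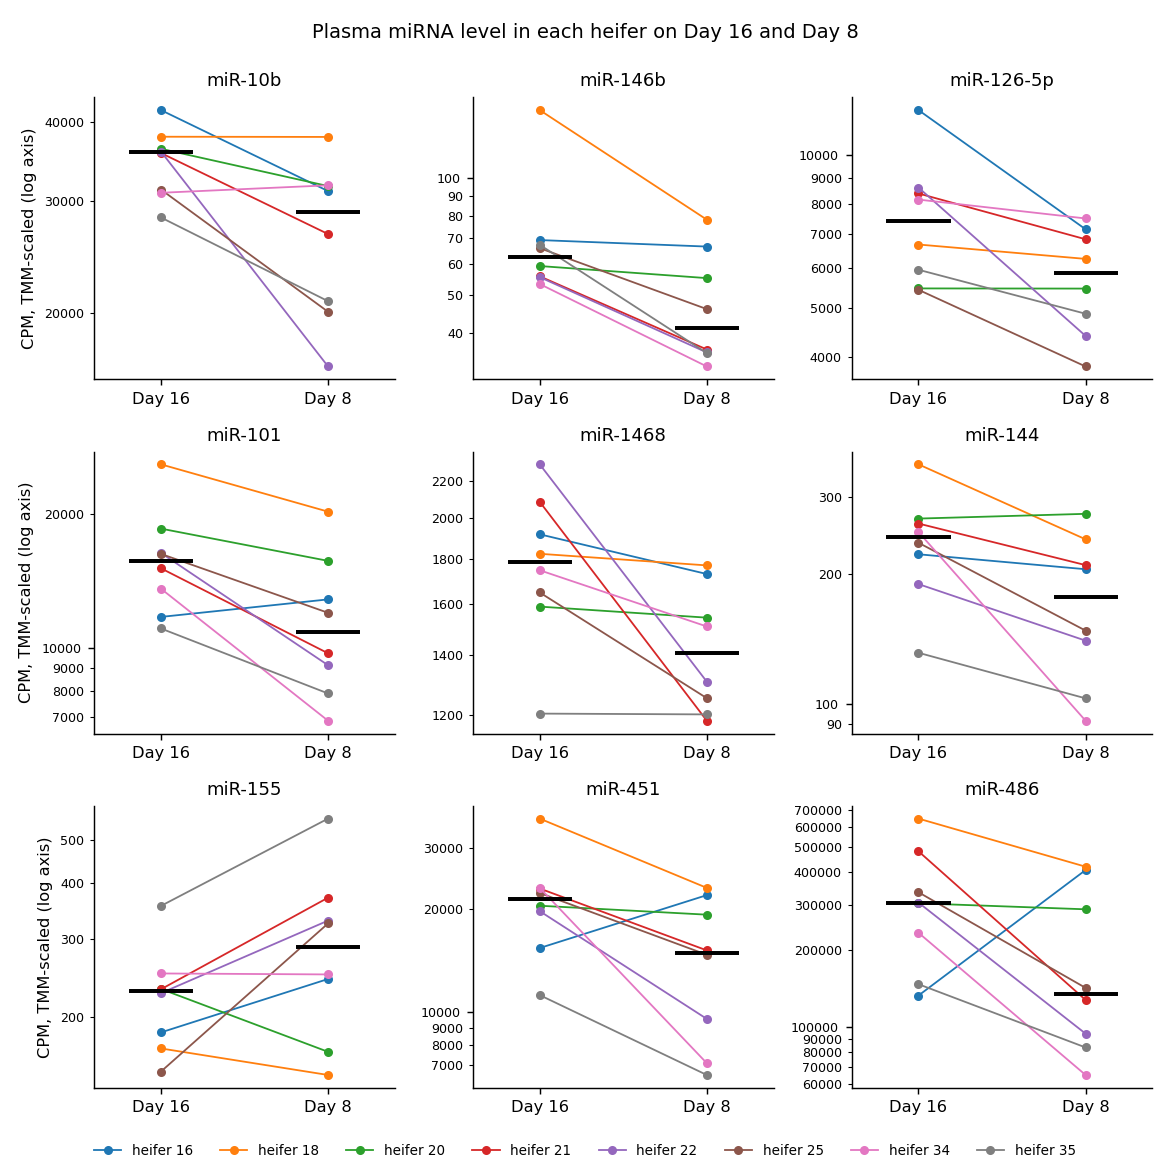
Level of 9 miRNAs in each heifer (CPM after TMM scaling, log axis), Day 16 at the left and Day 8 at the right of each panel; lines join the 2 libraries of a heifer and black bars are medians. The days overlap in all 9 panels, the lines of miR-146b, miR-126-5p and miR-1468 are higher at Day 16 in all 8 heifers, and in miR-451 and miR-486 heifer 16 runs against the others.

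These 7 miRNAs depended on single animals to different degrees. MiR-146b stayed at an unadjusted p under 0.05 whichever heifer was left out, with log2 fold changes of 0.44 to 0.64. MiR-10b and miR-101 did so for 6 of the 8 heifers left out, miR-126-5p and miR-1468 for 5, and miR-144 and miR-155 for 3. Without heifer 22, 1 of the 6 higher miRNAs (miR-146b) and 0 lower ones were left. Without heifer 25 there were 2 higher and 0 lower, without heifer 35 there were 3 and 0, without heifer 20 there were 6 and 2, without heifer 18 there were 5 and 6, and without heifer 16 there were 16 and 3, with 0 past the adjusted threshold each time.

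The miRNAs of red cells had the highest median log2 fold change of the 25 lists examined. Of the 9 erythrocyte miRNAs, 9 lay above 0, with a median of 0.33, against 58.1% of all miRNAs tested above 0 and their median of 0.03, and 1 of them, miR-144, was past the unadjusted threshold. Under total-count scaling 8 of the 9 lay above 0, with a median of 0.13, against 31 of all 186. MiR-486, encoded within the red-cell ankyrin gene ANK1, was the most abundant miRNA on both days. It had 132864, 304295 and 647327 CPM on Day 16, against 65242, 134978 and 420900 CPM on Day 8. It was higher on Day 16 in 7 of 8 heifers, and the days overlapped over most of their range. The log2 fold change was 0.78 (SE 0.43; adjusted p = 0.822, edgeR; 95% interval −0.12 to 1.67).

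MiR-451, whose maturation uses Argonaute instead of Dicer, is encoded beside miR-144, and both were higher on Day 16 in 7 of 8 heifers. It had 11207, 21338 and 36665 CPM on Day 16, against 6555, 14912 and 23026 CPM on Day 8. The log2 fold change was 0.57 (SE 0.28; adjusted p = 0.822, edgeR; exact permutation p = 0.023). The other red-cell miRNAs had smaller values, namely 0.37 for miR-25 (SE 0.20), 0.33 for miR-16b (SE 0.25), 0.31 for miR-15a (SE 0.17), 0.25 for miR-16a (SE 0.24), 0.22 for miR-92a (SE 0.24) and 0.15 for miR-15b (SE 0.14).

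As a share of miRNA counts, miR-486 took 27.97% ± 10.41 on Day 16 and 19.52% ± 10.95 on Day 8 (SD, n = 8 each), a difference of 8.45 ± 13.3 percentage points (exact sign-change permutation p = 0.109, adjusted over the 4 library measures 0.219). The log2 ratio of miR-451 to miR-23a, an index of red-cell lysis, was 2.77 ± 0.67 on Day 16 and 2.17 ± 0.78 on Day 8 (SD, n = 8 each; exact permutation p = 0.055, adjusted 0.219). This ratio is of sequencing reads, whereas the authors controlled for haemolysis by absorbance and by the same pair of miRNAs in PCR. Heifer 16 ran against the other 7 in the share and in the ratio. Without it the differences were 12.4 percentage points and 0.81, which are given as a description, since the animal is named for its direction, and leaving out any other heifer gave 6.50 to 9.51 percentage points and 0.42 to 0.67. Within heifers, the median log2 difference of the 9 erythrocyte miRNAs was −0.52 in heifer 16 and 0.08 to 0.99 in the other 7. The median of the remaining miRNAs lay between −0.02 and 0.09 in all 8, where TMM scaling holds it by construction. All these values are relative to other miRNAs, so more red-cell miRNA and less of the others cannot be told apart. Nor can release from lysed and from intact red cells, or fewer cells of a type and less RNA per cell for any other list.

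**Figure D3:**
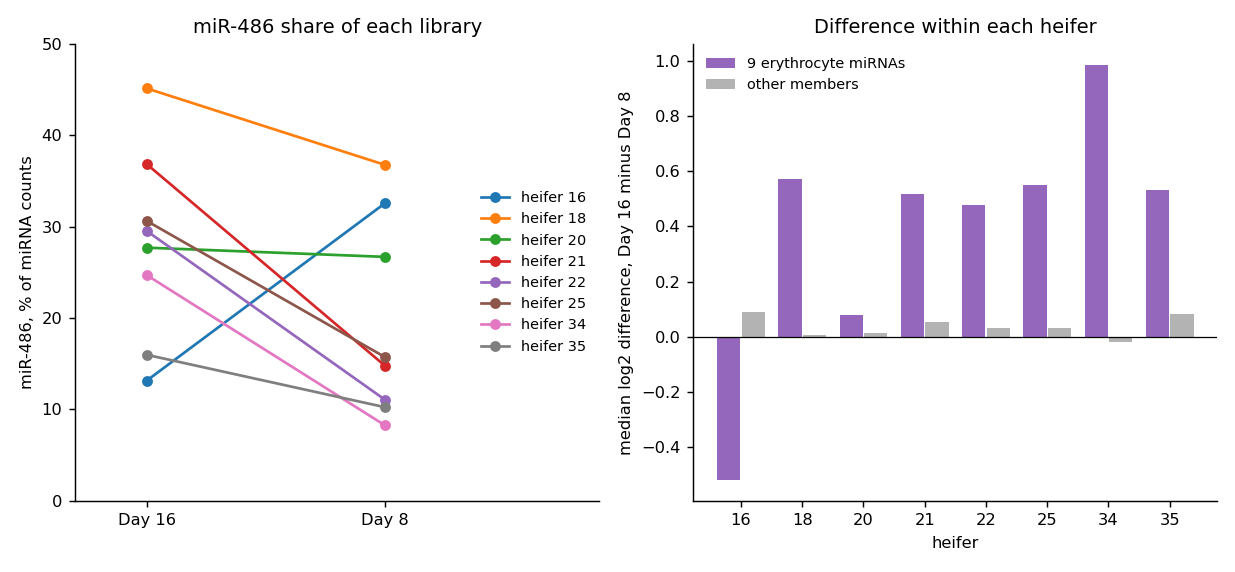
Left, miR-486 as a percentage of the miRNA counts of each library, Day 16 and Day 8 of a heifer joined by a line; right, the median log2 difference within each heifer (Day 16 minus Day 8) of the 9 erythrocyte miRNAs (purple) and of all other members (grey). The erythrocyte bars are above 0 in 7 heifers and at −0.52 in heifer 16, and the grey bars stay near 0, as TMM scaling makes them do.

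Values with the share of miR-486 held fixed are given beside those above. With the log2 share of miR-486 as a covariate, 5 miRNAs were higher and 0 lower at the unadjusted threshold, and miR-146b, miR-101, miR-144 and miR-155 were no longer among them. The log2 fold change was then 0.35 for miR-146b, 0.19 for miR-101, 0.18 for miR-144 and 0.13 for miR-451. Of the 9 erythrocyte miRNAs 5 lay above 0, with a median of 0.04, but miR-486 is itself one of the 9, so that this fit takes out their shared difference by construction. The part of red cells in any of these differences was not tested.

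The share of miRNAs above 0 depended on the scaling. TMM scaling, the one used throughout, gave 108 above and 78 below 0, whereas total counts gave 31 above 0 of 186, RPMM 33, RLE 93 and total counts without miR-486 87. Total-count scaling moved the median fold change by −0.20 on the log2 scale, to −0.17, so that 0 miRNAs were higher and 8 lower at the unadjusted threshold. In all 5 scalings 31 miRNAs lay above 0, among them the 6 past the unadjusted threshold, miR-451, miR-486, miR-25, miR-93 and miR-15a, and 78 lay below 0, miR-155 and miR-28 among them. The 31 are those above 0 under total counts and the 78 those below 0 under TMM. The scalings mainly shift all values together, so the 5 do not count as separate support.

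**Figure D4:**
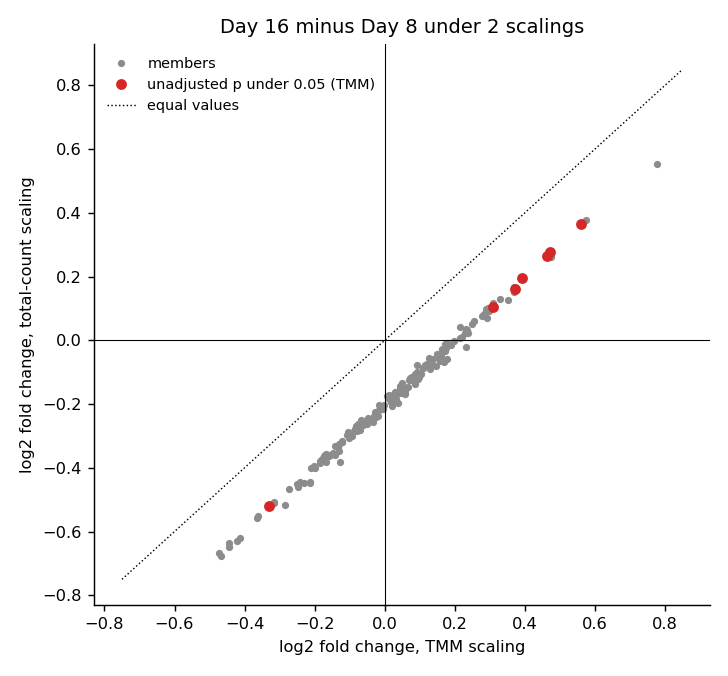
Log2 fold change, Day 16 minus Day 8, of each of the 186 miRNAs under total-count scaling (vertical axis) against TMM scaling (horizontal axis); red marks the 7 with an unadjusted p under 0.05 and the dotted line equal values. The points run parallel to that line, with a shift of the median of −0.20.

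By seed, the families leaned to one side in several cases. Of all 186 miRNAs, 58.1% were above 0 under TMM scaling and 31 under total-count scaling. The 5 miRNAs with the seed of miR-15 and miR-16, which restrain the cell cycle and BCL2 in human cells, were all above 0 (median 0.25), although 4 were so under RLE and 3 under total-count scaling. Of these 5, miR-15a, miR-15b, miR-16a and miR-16b are also in the erythrocyte list, and with the miR-486 covariate 3 of the 6 in the wider miR-15/16 list were above 0 (median 0.04). The 3 with the seed of miR-25, miR-92a and miR-92b were above 0 (median 0.31), also under total-count scaling. The 7 with the let-7 seed, a family that marks differentiated cells, were all below 0 (median −0.13). So were the pair of miR-26 sequences with a known seed (median −0.37) and miR-221 with miR-222 (median −0.22). The other scalings shift the values down from TMM, so these miRNAs stayed below 0 there as well. In the let-7 list, which adds let-7b, 1 of 8 was above 0, and 3 of 8 were when heifer 16 or heifer 35 was left out (median −0.04 without heifer 35). In the edgeR fit reported, with TMM scaling, none of these miRNAs passed the unadjusted threshold. Some did so in other settings. Let-7d and miR-222 passed it as lower on Day 16 under total-count scaling. With limma on either RPMM scale, let-7d, miR-221 and miR-222 did. In the exact sign-change permutation test on TMM-scaled values, miR-15a and miR-25 passed it as higher.

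Let-7d and let-7f had the most negative values of their family. Let-7d had 284.8, 458.3 and 1126 CPM on Day 16, against 336.6, 536.6 and 1407 CPM on Day 8, and its log2 fold change was −0.47 (SE 0.26; adjusted p = 0.822, edgeR). Let-7f had 1779, 2761 and 7896 CPM on Day 16, against 1600, 2885 and 11330 CPM on Day 8, with a log2 fold change of −0.44 (SE 0.33; adjusted p = 0.822, edgeR). For each, 3 of 8 heifers were higher on Day 16, and the ranges of the days overlapped almost throughout. The 3 miR-26 miRNAs had log2 fold changes of −0.42 for miR-26a (SE 0.28), −0.31 for miR-26b (SE 0.22) and −0.47 for miR-26c (SE 0.30), with a list median of −0.42, and the 3 stayed below 0 whichever heifer was left out (medians of −0.59 to −0.32). The lower values came mostly from heifers 22, 25 and 35, so leaving out 1 animal cannot show whether they are shared. In these heifers miR-26a differed by −0.99, −1.07 and −1.14, and in the others by −0.21 to 0.25. MiR-26b had −0.90, −1.15 and −0.80, against −0.28 to 0.43 in the others. MiR-26c had −1.12, −1.16 and −1.16, against −0.23 to 0.33. With the miR-486 covariate the median of the 3 miRNAs was −0.11.

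Genomic clusters were examined next. Of all 186 miRNAs, 58.1% were above 0 under TMM scaling and 31 under total-count scaling, and the counts below stand beside these. Of the 9 members of the miR-17-92 clusters and their paralogues, which promote proliferation, 7 were above 0, with a median of 0.13 (4 under total-count scaling; median 0.01 with the miR-486 covariate), led by the neighbours miR-25, miR-93 and miR-106b within MCM7. Their log2 fold changes were 0.37 (SE 0.20), 0.30 (SE 0.17) and 0.25 (SE 0.18), and miR-25 and miR-92a are also in the erythrocyte list. MiR-17-5p had −0.05 (SE 0.14) and miR-18a −0.07 (SE 0.15). The imprinted DLK1-DIO3 cluster, which is active in the placenta, embryo and muscle, had 8 of its 49 miRNAs in the table included in the comparison, and 8 of 8 were above 0 (median 0.23). Leaving out 1 heifer gave 8 of 8 above 0 each time, with medians of 0.10 (without heifer 22) to 0.25. Its highest was miR-411a, with 82.6, 99.5 and 141.04 CPM on Day 16, against 56.1, 83.2 and 105.9 CPM on Day 8 (log2 fold change 0.35, SE 0.19; adjusted p = 0.822, edgeR). MiR-665 of the same cluster was higher in 7 of 8 heifers (0.23, SE 0.14). Under total-count scaling 5 of the 8 were above 0, and none of the 8 passed the unadjusted threshold in the edgeR fit reported. In the exact sign-change permutation test miR-665 (p = 0.023) and miR-380-3p (p = 0.031) did.

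**Figure D5:**
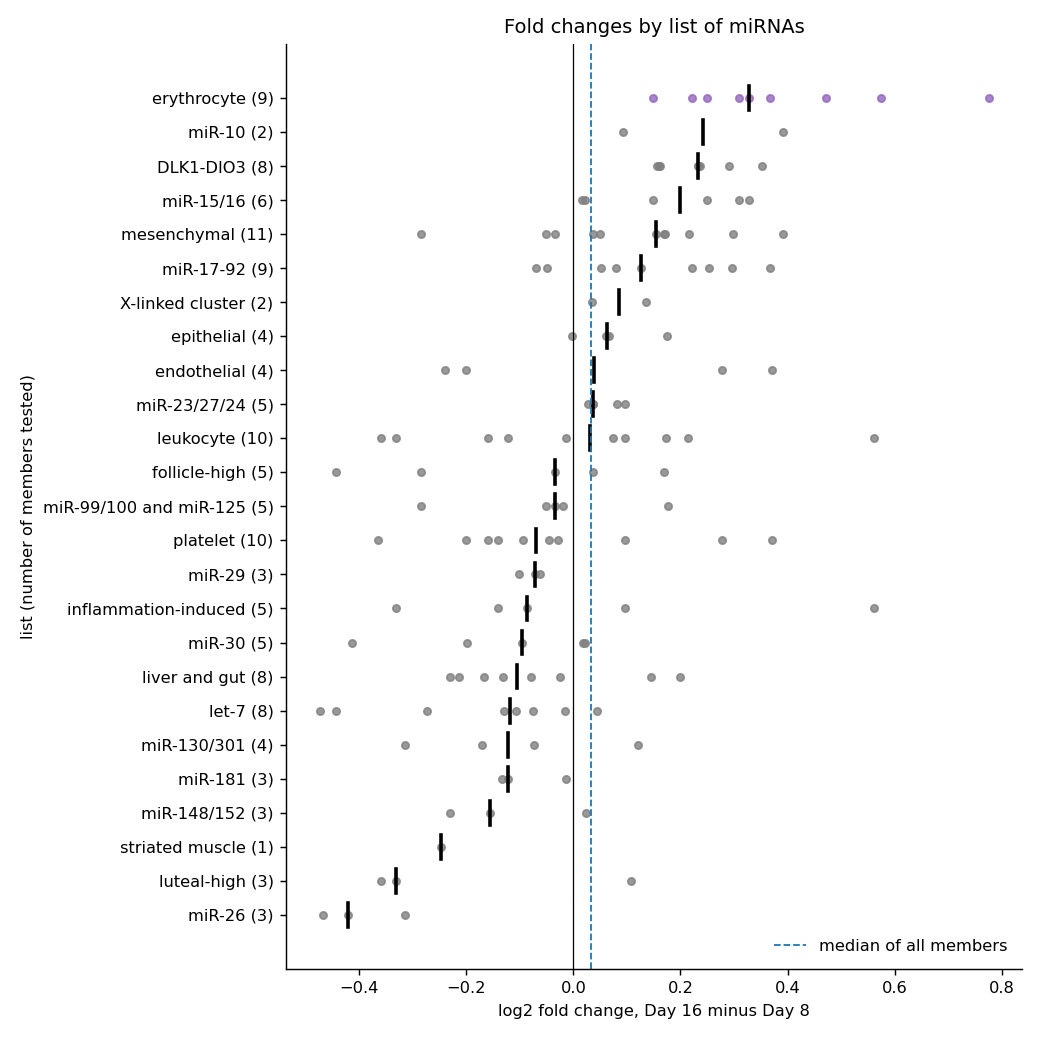
Log2 fold change, Day 16 minus Day 8, of the members of each list (points) with the median of the list (black bar), lists ordered by median and the number tested in brackets; the dashed line is the median of all 186 miRNAs, 0.03. The erythrocyte list (purple) is at the top with a median of 0.33 and the miR-26 list at the bottom with −0.42.

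Leukocyte miRNAs went in both directions. Of 10, 5 lay above and 5 below 0, with a median of 0.03, against 58.1% of all 186 above 0. Under total-count scaling 2 lay above 0, against 31 of all 186. MiR-142-3p, a miRNA of all blood-forming cells, had 319.5, 462.5 and 832.2 CPM on Day 16, against 291.9, 697.2 and 1083 CPM on Day 8 (log2 fold change −0.36, SE 0.22; adjusted p = 0.822, edgeR), while the other arm of its hairpin, miR-142-5p, stood at 0.07 (SE 0.13). Both strands of the inflammation-induced miR-21 lay slightly below 0, at −0.14 (SE 0.12) and −0.09 (SE 0.19), so that among the 5 inflammation-induced miRNAs miR-146b and miR-155 were on opposite sides.

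Platelet and endothelial miRNAs were divided as well. Of the 10 platelet miRNAs 3 were above 0, among them both arms of miR-126, against 58.1% of all 186 miRNAs. With the miR-486 covariate 5 were, against 62.9% of all 186 miRNAs. MiR-223, miR-191 and miR-22-3p had values of −0.16 (SE 0.13), −0.03 (SE 0.17) and −0.09 (SE 0.12). Of the 4 endothelial miRNAs, both miR-126 arms were above 0 and both miR-221 and miR-222 below it. MiR-222, which restrains the growth factor receptor KIT in human endothelial cells, had 652.7, 759.3 and 1232 CPM on Day 16, against 657.3, 1071 and 1394 CPM on Day 8 (log2 fold change −0.24, SE 0.13; adjusted p = 0.822, edgeR). MiR-221, its neighbour on the X chromosome, had −0.20 (SE 0.13), and each was lower on Day 16 in 6 of 8 heifers.

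Of the 8 liver and gut miRNAs tested 6 lay below 0, with a median of −0.11, against 78 of all 186 below 0. Under total-count scaling 0 of 8 were above 0 (median −0.31), against 31 of all 186 (median −0.17). With the miR-486 covariate 7 of 8 were (median 0.03), against 62.9% of all 186 (median 0.04). The whole profile thus moved with these settings as well. Of these miRNAs 0 were past the unadjusted threshold. MiR-192, the third most abundant miRNA on both days and a product of liver, kidney and gut, had 35178, 48454 and 98300 CPM on Day 16, against 37463, 54111 and 75207 CPM on Day 8 (log2 fold change −0.13, SE 0.20). MiR-194 was lower in 7 of 8 heifers, at −0.17 (SE 0.17). MiR-122, the main miRNA of hepatocytes, was near the limit of inclusion. It had 18.6, 62.8 and 73.3 CPM on Day 16, against 7.02, 62.5 and 98.8 CPM on Day 8. The 2 list members above 0 were miR-122, at 0.15 (SE 0.35), and miR-375, at 0.20 (SE 0.21). Besides miR-194, the only miRNA of the 186 lower in at least 7 heifers was miR-301b, at −0.32 (SE 0.19).

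Of the striated muscle miRNAs only miR-133a met the inclusion rule, and it varied more than any other miRNA. It had 36.7, 160.9 and 1804 CPM on Day 16, against 25.5, 135.6 and 3273 CPM on Day 8, and the within-heifer difference ran from −5.21 in heifer 35 to 3.11 in heifer 22. A single library led on each day, that of heifer 25 on Day 16 and that of heifer 35 on Day 8. MiR-1 and miR-206, other muscle miRNAs, were at or near 0 in all 16 libraries, with highest values of 1.71 and 0.68 RPMM on Day 16 and 4.01 and 0.36 RPMM on Day 8. MiR-208b and miR-499 of the same list were found in all 16 libraries but did not meet the inclusion rule, with medians of 9.15 and 11.6 RPMM on Day 16 and 8.84 and 12.9 RPMM on Day 8.

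Mesenchymal miRNAs, typical of fibroblasts and smooth muscle, were above 0 in 8 of 11 cases, against 58.1% of all 186. Their median was 0.15, against 0.03. MiR-10b was the only one past the unadjusted threshold under TMM scaling (edgeR). Under total-count scaling 3 of 11 were above 0, against 31 of all 186. Without heifer 22, 6 of 11 were, with a median of 3.6e-05. MiR-199b had 0.30 (SE 0.18) and miR-125b −0.28 (SE 0.21). MiR-143, a miRNA of smooth muscle, had 4838, 8894 and 20980 CPM on Day 16, against 4082, 7907 and 27852 CPM on Day 8, so that its difference of 0.04 (SE 0.30) was far within the spread between heifers. Of the 4 epithelial miRNAs 3 were above 0 under TMM and 0 under total-count scaling, against the same 58.1% and 31 of 186. They were led by miR-205 at 0.18 (SE 0.19).

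MiRNAs that the study links to ovarian tissue showed no common direction. Of the 5 that it gives as higher in follicles than in luteal tissue, 2 lay above 0, against 58.1% of all 186. Their median was −0.03. Of the 3 tested that it gives as higher in luteal tissue, 2 lay below 0, namely miR-155 and miR-142-3p, and miR-378 had 0.11 (SE 0.17). The fourth, miR-132, did not meet the inclusion rule, with a median of 22.8 RPMM on Day 16 and 26.4 RPMM on Day 8. It was above 25 RPMM in 2 of 8 libraries on Day 16 and in 5 of 8 on Day 8. MiR-202, a miRNA of the gonads, had at most 0.88 RPMM on Day 16 and 0.73 RPMM on Day 8.

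The most abundant miRNAs were shared by both days. The 10 with the highest mean share were the same 10 on both days, and the leading 8 took 59.5% ± 5.55 of counts on Day 16 and 55.0% ± 6.36 on Day 8 (SD, n = 8 each). Apart from miR-486 and miR-10b, these were miR-22-3p, miR-192, miR-191, miR-423-5p, miR-92a and miR-142-5p, whose log2 fold changes lay between −0.13 and 0.22, with adjusted p of 0.886 or more (edgeR). MiR-22-3p, at 89161, 96356 and 122771 CPM on Day 16, against 85196, 107989 and 119119 CPM on Day 8, had the narrowest interval of those below 0, from −0.35 to 0.16.

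Set beside the day of oestrus, the leading miRNAs stood as follows, with the Day 0 libraries shared by both values. MiR-10b was at −0.49 on Day 8 and −0.10 on Day 16 relative to Day 0 (log2). MiR-155 was at 0.30 on Day 8 and −0.03 on Day 16. MiR-146b was at −0.09 and 0.47, miR-101 at 0.00 and 0.47, miR-144 at 0.00 and 0.47, miR-126-5p at −0.09 and 0.28, and miR-1468 at 0.00 and 0.31, on Day 8 and Day 16 in each case. The values of miR-10b and miR-155 on Day 16 were thus nearer to those of Day 0 than their values on Day 8 were, and the other 5 lay near Day 0 on Day 8.

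At the edge of the inclusion rule, miR-133a and miR-145, among others, were above 25 RPMM in 6 of 8 libraries on Day 8, while let-7e, miR-17-3p, miR-2376, miR-432 and miR-6123 were left out because they passed on 1 of the days only. Let-7e, for example, had a median of 39.96 RPMM on Day 16 and 34.5 RPMM on Day 8 and passed in 6 and 5 libraries. Of the 186 miRNAs, 5 would not have passed on Day 0, namely miR-122, miR-1306, miR-2415-3p and the human-named miR-4792 and miR-802.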

How the data were processed

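Small RNA of 16 plasma samples, 1 from each of 8 heifers on Day 16 and on Day 8, was compared, and the 8 libraries of Day 0 entered the fit for its spread. RNA had been extracted with TRIzol LS, made into Illumina TruSeq small-RNA libraries and sequenced in single reads on the HiSeq 2000. Per the labels and the study's methods, the authors trimmed adaptors, matched the reads with up to 1 mismatch to mature miRNAs of cattle and man (sRNAbench, with Bowtie 0.12.9), and deposited raw read counts. The same authors deposited RPM values, which they call RPMM, scaled to the reads of each library mapped to the genome. Reads of near-identical miRNAs cannot be told apart with certainty. The table holds 870 miRNAs, and 0 columns of single samples were left unused.

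MiRNAs above 25 RPMM in at least 6 of 8 libraries of both days were tested, 186 in all. After TMM scaling, the counts were fitted by day with the heifer as a block (edgeR 4.0.16, quasi-likelihood F test, R 4.3.3), with Benjamini-Hochberg adjustment over the 186, and thresholds of 0.1 (adjusted) and 0.05 (unadjusted). The SE is the absolute log2 fold change divided by the square root of F. Library measures, and single miRNAs on log2(CPM + 1), were compared by all 256 two-sided sign changes within heifers, which cannot give a p below 0.0078. The pairing rests on the animal in the sample records. Residual profiles had a median correlation of 0.479 (range 0.308 to 0.585) between the 2 libraries of a heifer. Between heifers the median was −0.0718 (range −0.577 to 0.436), so the ranges overlapped. Named are the 10 miRNAs with the smallest p in each direction, the 8 most abundant, the leading 2 of each list, those the study measured by RT-qPCR, and miRNAs that share a seed with these. A few others (the remaining erythrocyte, miR-26, miR-17-92 and miR-21 members, miR-126-3p, miR-223, miR-122, miR-375, miR-380-3p, marker miRNAs and those at the edge of the rule) were named after their values were seen. The inclusion rule and the 25 lists were chosen with earlier results of these data known. Alternatives were DESeq2 1.42.0, limma 3.58.1 on log2(RPMM + 1) and log2(RPMM + 0.1), limma-voom, RLE and total-count scalings, other filters, the 16 libraries alone, robust dispersion, a miR-486 covariate, no heifer term, and leaving out each heifer. Summaries and figures used Python 3.11.15, numpy 2.4.6, pandas 2.3.3 and matplotlib 3.10.9.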

Additional observations from a re-analysis of the deposited data

Results flagged for a closer look

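For 17 sets of 8 libraries (1 named miRNA on 1 day), a single library stood apart from the other 7 by Dixon's criterion, each time as the highest. These were 13.9% of the sets examined. The criterion's rate of about 1 in 20 by chance holds for normally distributed values in independent sets. Here it was applied to CPM without a log scale, and the sets share libraries. The share flagged can therefore not be compared with that rate, and no excess over chance is claimed. Values are CPM after TMM scaling, followed by that of the next library.

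Among the miRNAs with the smallest p-values, heifer 18 had 150.1 CPM of miR-146b on Day 16 (next 69.3), and heifer 16 had 12264 CPM of miR-126-5p on Day 16 (next 8631). Among those of red cells, heifer 18 had 36665 CPM of miR-451 on Day 16 (next 23025), heifer 21 had 67763 CPM of miR-92a on Day 16 (next 42196), and heifer 16 had 66370 CPM of miR-92a on Day 8 (next 36764). In heifer 18, miR-93 also stood apart on Day 16, at 5531 CPM (next 3872).

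The Day 16 library of heifer 16, the shallowest of the 16, stood apart for miR-192, at 98300 CPM (next 57836), for miR-194, at 318.0 CPM (next 201.7), and for miR-143, at 20980 CPM (next 9676). On Day 16, let-7d reached 1126 CPM in heifer 22 (next 589.5), miR-301b reached 347.9 CPM in heifer 35 (next 222.1), and miR-423-5p reached 54105 CPM in heifer 21 (next 42016).

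MiR-133a reached 1804 CPM on Day 16 in heifer 25 (next 503.6) and 3273 CPM on Day 8 in heifer 35 (next 795.2). The Day 8 library of heifer 35 also had 1685 CPM of miR-30b-5p (next 1026). The Day 8 library of heifer 18 had 97.9 CPM of miR-145 (next 44.5) and 27852 CPM of miR-143 (next 9240), a pair of neighbouring smooth muscle miRNAs.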

How the results depend on the processing

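No miRNA passed the adjusted threshold under any of the 24 settings planned, the one reported among them, or the added exact test, and the smallest adjusted p was 0.173, for the 16 libraries of both days alone. For the sign-change tests this was close to fixed beforehand, since their p cannot fall below 0.0078 with 8 heifers. The number higher on Day 16 at an unadjusted p under 0.05, 6 as reported, was 0 with limma on either RPMM scale and with total-count scaling, 3 with the sign-change test on RPMM, 11 with filterByExpr, 12 without a filter and with the 16 libraries alone, 18 with limma-voom and 13 with the added exact test on TMM-scaled values. The number lower, 1 as reported, was 0 with the miR-486 covariate, 2 with total counts without miR-486 and with the limit applied on all 3 days, 4 with DESeq2 and with limma-voom, 6 with the sign-change test on RPMM, 7 with limma on either RPMM scale, 8 with total-count scaling and with filterByExpr, and 18 without a filter. Without the replicate block for the heifer, 3 were higher and 0 lower. Leaving out 1 heifer gave 1 to 16 higher and 0 to 6 lower.

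The median log2 fold change, 0.03 as reported, was 0.00054 with DESeq2, 9.2e-05 with RLE, 0.0012 with the limit on all 3 days, −0.0079 with total counts without miR-486, −0.016 with filterByExpr, −0.029 without a filter, −0.167 with total counts, −0.168 with limma on log2(RPMM + 1) and the sign-change test on RPMM, and −0.169 with limma on log2(RPMM + 0.1). Leaving out 1 heifer gave −0.019 to 0.039. For the library measures, leaving out 1 heifer gave differences of 6.50 to 12.4 percentage points in the miR-486 share, 0.42 to 0.81 in the log2 ratio of miR-451 to miR-23a, −1.04 to 1.15 percentage points in the miRNA share of mapped reads, and −6.57 to 2.14 in the number of miRNAs above 1 RPMM. Counting miRNAs with more than 10 counts in place of those above 1 RPMM gave a difference of −18.1 (exact permutation p = 0.016), on unequal depths. Of the 57 named miRNAs, 14 changed sign under total-count scaling, 13 under limma or the sign-change test on RPMM, 11 with the miR-486 covariate, and at most 6 under any other setting.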
